A study of Mus musculus with 12 samples.

Results

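The genes described here are 10 members of the bone morphogenetic protein (BMP) pathway in mouse pluripotent cells: the ligand genes Bmp4 and Bmp8b, the receptor gene Bmpr1a, the inhibitor genes Bambi and Smad6, and the target genes Id1, Id2, Id3, Id4 and Msx2. They were chosen by symbol, and each matched 1 locus with no merged name, so the set is 10 of 23136 named loci. Polyadenylated RNA was sequenced from 4 groups of C57 Bl/6J cells with 3 libraries each. Epiblast-like cells (EpiLC) were wild type and had been moved to fibronectin with 12 ng/ml Fgf2, 20 ng/ml Activin A and 1% KOSR for 48 h. Sirt1KO Otx2KD embryonic stem cells (ESC) were labelled as knockout for the deacetylase gene Sirt1 with the transcription factor Otx2 knocked down. Sirt1KO ESC were labelled with the Sirt1 knockout alone, and WT ESC carried neither change. The 3 ESC groups were kept naive in serum-free N2B27 with LIF, 1 uM of the MEK inhibitor PD0325901 and 3 uM of the GSK3 inhibitor CHIR99021. No BMP is listed among the components of either medium. The labels used here do not give the deleted part of Sirt1, the knockdown method or the number of clones, and nothing says that replicates came from separate cultures, so the spread between them may be technical.

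BMP ligands bind pairs of type I and type II serine/threonine kinase receptors, and Bmpr1a encodes a type I receptor. The active receptors phosphorylate Smad1, Smad5 and Smad9, which enter the nucleus with Smad4 and act on target genes, among which the Id genes are the best known. Id proteins have a helix-loop-helix domain without a DNA-binding region and keep E proteins and their partners from binding DNA. In mouse ESC grown in LIF without serum, added BMP4 is known to help to sustain self-renewal through Id genes. Smad6 is an inhibitory Smad and Bambi is a receptor-like protein with no kinase domain, and both are BMP-induced genes that dampen the signal.

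The upstream sequences of 6 of these genes are shown because their values carry the results below. Id2, Id3 and Id4 fell in EpiLC relative to WT ESC, Smad6 and Msx2 were lower in Sirt1KO ESC than in either other ESC group, and Bmp4 was lower in Sirt1KO Otx2KD ESC than in any other group. Each line is the 250 bases before the start of the gene in RefSeq, on assembly GRCm38.p6, read 5′ to 3′ along the strand of the gene. Capitals mark GGCGCC and GGAGCC, which are letters known to bind Smad1 and Smad5, and GTCTG, a Smad4 element, on either strand. The intervals are chr12:25096093-25096342 (minus strand) for Id2, chr4:136143572-136143821 (plus strand) for Id3, chr13:48260866-48261115 (plus strand) for Id4, chr9:64022060-64022309 (minus strand) for Smad6, chr13:53472781-53473030 (minus strand) for Msx2 and chr14:46390670-46390919 (minus strand) for Bmp4.
Id2: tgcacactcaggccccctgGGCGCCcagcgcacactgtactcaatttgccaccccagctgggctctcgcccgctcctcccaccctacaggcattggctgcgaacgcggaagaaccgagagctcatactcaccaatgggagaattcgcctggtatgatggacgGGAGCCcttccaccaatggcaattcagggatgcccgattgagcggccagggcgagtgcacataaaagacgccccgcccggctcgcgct
Id3: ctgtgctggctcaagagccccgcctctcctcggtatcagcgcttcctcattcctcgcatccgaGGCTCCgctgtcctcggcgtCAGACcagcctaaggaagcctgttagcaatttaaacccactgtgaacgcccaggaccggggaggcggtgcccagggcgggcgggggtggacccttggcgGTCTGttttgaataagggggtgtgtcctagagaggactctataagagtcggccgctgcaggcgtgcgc
Id4: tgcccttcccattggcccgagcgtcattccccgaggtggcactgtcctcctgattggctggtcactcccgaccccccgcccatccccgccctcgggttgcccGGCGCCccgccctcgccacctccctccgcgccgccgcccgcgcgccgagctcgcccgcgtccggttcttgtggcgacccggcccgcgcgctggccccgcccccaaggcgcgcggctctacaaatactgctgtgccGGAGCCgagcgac
Smad6: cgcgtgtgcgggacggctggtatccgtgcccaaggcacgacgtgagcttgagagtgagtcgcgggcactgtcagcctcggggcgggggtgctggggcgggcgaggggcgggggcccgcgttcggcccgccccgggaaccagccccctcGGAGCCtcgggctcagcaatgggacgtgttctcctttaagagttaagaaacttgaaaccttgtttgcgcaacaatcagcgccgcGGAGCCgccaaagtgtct
Msx2: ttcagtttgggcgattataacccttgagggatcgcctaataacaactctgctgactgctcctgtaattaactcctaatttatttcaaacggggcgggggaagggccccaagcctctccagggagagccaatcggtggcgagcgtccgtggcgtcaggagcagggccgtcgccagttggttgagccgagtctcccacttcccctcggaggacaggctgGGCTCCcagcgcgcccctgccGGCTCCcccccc
Bmp4: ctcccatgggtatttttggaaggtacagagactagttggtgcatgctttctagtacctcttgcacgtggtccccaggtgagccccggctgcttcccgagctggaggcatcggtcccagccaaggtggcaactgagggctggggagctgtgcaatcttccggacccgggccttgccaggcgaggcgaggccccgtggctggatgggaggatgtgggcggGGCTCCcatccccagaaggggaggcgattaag

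RefSeq upstream sequences were taken for 8 of the 10 genes, not for Id1 and Bambi. Bambi lies on chromosome 18, which was left out when the sequences of the 10 genes were taken. Positions are counted back from the gene start at -1. GGCGCC was found in Id2 (-231 to -226), Id4 (-148 to -143) and Bmpr1a (-198 to -193), and 9.59% of 32841 mouse promoters of this length hold it. GGAGCC was found in Id2, Id3, Id4, Bmp4 and Bmp8b and at 2 places each in Smad6 (-102 to -97 and -18 to -13) and Msx2 (-33 to -28 and -12 to -7), against 26% of all promoters. GTCTG was found in Id3 (-167 to -163 and -68 to -64) and Bmp8b, against 42.2% of all promoters. The Otx2-type letters TAATCC were in none of the 8 windows and in 6.25% of all promoters. No matches overlapped. These are matches of letters in short windows of GC-rich sequence (61.6% to 78.8% GC in the 8, with a median of 52.4% over all promoters) and are given as a description.

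Levels are FPKM, fragments normalized to transcript length and library size, in the unit the authors deposited. The deposited values carry no counts, so depth was read from the steps between low values. The libraries came out at 0.767 to 1.33 times the depth of WT ESC replicate 1, an estimated 7120000 to 12400000 fragments each. Sirt1 averaged 15.6 FPKM in Sirt1KO Otx2KD ESC and 15.5 FPKM in Sirt1KO ESC, against 33.2 FPKM in EpiLC and 25.8 FPKM in WT ESC, so transcripts of the locus remained in the knockout. Otx2 averaged 100 FPKM in EpiLC, 6.07 FPKM in Sirt1KO Otx2KD ESC, 27.0 FPKM in Sirt1KO ESC and 7.38 FPKM in WT ESC. The 6 naive markers (among them Nanog and Esrrb) summed to 281 to 299 FPKM in EpiLC, against 967 to 1288 FPKM over the ESC libraries, and the 4 EpiLC markers (among them Fgf5 and Otx2) to 610 to 622 FPKM in EpiLC. In Sirt1KO ESC these 4 EpiLC markers summed to 131 to 194 FPKM, against 32.6 to 35.2 FPKM in Sirt1KO Otx2KD ESC and 25 to 28.3 FPKM in WT ESC. Dnmt3b made up most of these sums, with means of 477 FPKM in EpiLC, 25.1 FPKM in Sirt1KO Otx2KD ESC, 112 FPKM in Sirt1KO ESC and 17.7 FPKM in WT ESC. Fgf5 averaged 6.11 FPKM in EpiLC and 3.02 FPKM in Sirt1KO ESC. The 10 fibroblast and feeder cell markers, led by collagen genes, summed to 66.1 to 68.9 FPKM in EpiLC, 239 to 241 FPKM in Sirt1KO Otx2KD ESC, 12.3 to 16.5 FPKM in Sirt1KO ESC and 108 to 129 FPKM in WT ESC, with no marker at 0. The 6 trophoblast markers summed to 7.22 to 8.55 FPKM in EpiLC, 56.1 to 58.0 FPKM in Sirt1KO Otx2KD ESC, 28.8 to 32.8 FPKM in Sirt1KO ESC and 80.3 to 85.2 FPKM in WT ESC. Most of this sum was Tfap2c, with means of 5.88, 55.2, 27.2 and 80.1 FPKM in the same order. Eomes averaged 1.6, 0.94, 3.56 and 1.99 FPKM, and Cdx2, Elf5, Gata3 and Hand1 stayed at or below 0.941 FPKM. Primitive endoderm markers summed to at most 3.29 FPKM and mesoderm markers to at most 5.05 FPKM in any library. Genes on chromosomes 8 and 11 were shifted as a block between WT ESC and each other group. Against WT ESC, their median log2 fold changes were 0.40 and -0.46 in EpiLC and 0.46 and -0.49 in Sirt1KO ESC. In Sirt1KO Otx2KD ESC against WT ESC they were 0.36 and -0.39, and in EpiLC against Sirt1KO ESC -0.05 and 0.02. None of the 10 genes lies on these chromosomes.

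In the coordinates of the files, on mm9, the ligand loci are at chr14:46999198-47010274 (Bmp4) and chr4:122782407-122803334 (Bmp8b), and Bmpr1a is at chr14:35224253-35315732. Of the inhibitors, Smad6 is at chr9:63800882-63869866 and Bambi at chr18:3507905-3516402. The target loci are at chr2:152562009-152563146 (Id1), chr12:25778663-25780957 (Id2), chr4:135699729-135701307 (Id3), chr13:48356501-48360054 (Id4) and chr13:53562249-53568149 (Msx2). The values are for whole loci, so exons and UTRs were not measured apart. Between genes, FPKM is per length. Bmpr1a was at 20.1 to 27.2 FPKM in the 12 libraries. Id2 and Id3 reached up to 24.0 FPKM in ESC, and in some ESC libraries Id2 or Id3 was above Bmpr1a. Bambi and Id4 were intermediate, and Bmp4, Smad6, Id1 and Msx2 stayed at or below 3.73 FPKM. Bmp8b was highest at 0.623 FPKM and was the 1 gene of the 10 that did not reach 1 FPKM in 3 libraries, so 9 of the 10 were tested. The test was limma on log2(FPKM + 1) over all 12 libraries, and a gene was called at a Benjamini-Hochberg adjusted p under 0.05 over 12320 loci. Every fold change below is on that scale, which understates the change of low genes.

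**Figure D1:**
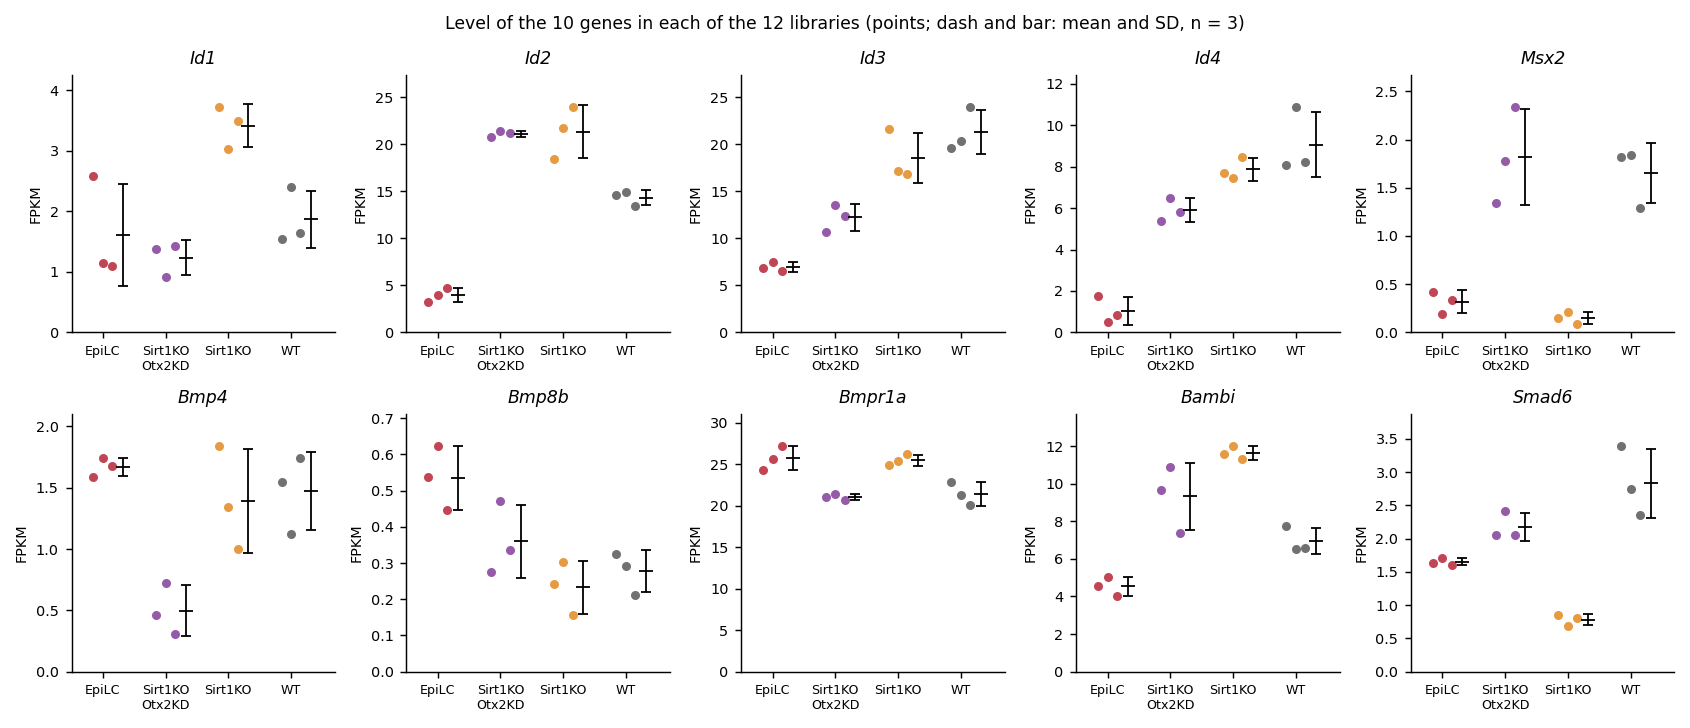
FPKM of the 10 genes (vertical axes, from 0, a scale per gene) in each of the 12 libraries, grouped as EpiLC, Sirt1KO Otx2KD, Sirt1KO and WT; points are libraries, the dash and bar the mean and SD (n = 3). Id2, Id3 and Id4 are lowest in EpiLC, Smad6 is lowest in Sirt1KO ESC, and Bmp4 is lowest in Sirt1KO Otx2KD ESC. Msx2 has its lowest mean in Sirt1KO ESC, where its libraries overlap those of EpiLC.

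The first comparison asked how the genes differ between naive WT ESC and primed EpiLC. The groups were also grown in different media, so this comparison cannot separate an effect of the medium from one of the state. In EpiLC, 3 of the 4 Id genes were several-fold lower than in WT ESC, Msx2, Smad6 and Bambi were lower too, and the receptor gene Bmpr1a was slightly higher. Of the 9 tested genes 1 was called higher and 6 lower, where 35.8% and 38.8% of all tested loci were called in those directions. A share of 7 of 9 called is near the 74.6% of all loci, so the count itself says nothing about these genes. All 3 EpiLC libraries were above all WT ESC libraries for 1 gene and below them for 6, where 37.1% and 39.7% of loci were. Their median log2 fold change was -0.52, against -0.02 over all loci tested.

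Id4, which in the nervous system is known for holding back differentiation, had the largest change. It was at 1.77, 0.495 and 0.835 FPKM in EpiLC, against 8.11, 10.9 and 8.21 FPKM in WT ESC, and the groups did not overlap. The log2 fold change was -2.35 ± 0.18 (SE, adjusted p = 1.92e-07), the 244th of 12320 by size. Id2 was at 3.26, 3.95 and 4.68 FPKM in EpiLC, against 14.6, 14.9 and 13.4 FPKM in WT ESC. All EpiLC libraries were below all WT ESC libraries, and the log2 fold change was -1.63 ± 0.10 (adjusted p = 4.23e-09). Id3 was at 6.85, 7.50 and 6.53 FPKM in EpiLC, against 19.6, 20.4 and 24.0 FPKM in WT ESC. Its groups did not overlap either, and its WT ESC mean was 3.06 times its EpiLC mean (adjusted p = 2.01e-08).

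Id1, often used as the standard readout of BMP signalling, did not pass the test in EpiLC. It was at 2.59, 1.15 and 1.10 FPKM in EpiLC, against 1.54, 2.41 and 1.65 FPKM in WT ESC. EpiLC replicate 1 was above all WT ESC libraries and the other EpiLC libraries were below them. The log2 fold change was -0.16 ± 0.19 (adjusted p = 0.444), and without EpiLC replicate 1 it was -0.42 with an adjusted p of 0.0188 (0.0188 to 0.899 over the alternatives). The values rest on 20, 11 and 7 fragments in EpiLC and on 11, 17 and 12 fragments in WT ESC.

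Msx2, a homeobox gene that BMP induces in many tissues, was at 0.422, 0.189 and 0.341 FPKM in EpiLC, against 1.82, 1.84 and 1.29 FPKM in WT ESC. The groups did not overlap. Msx2 fell by 1.01 on the log2 scale (SE 0.13, adjusted p = 8.84e-06). With a pseudocount of 0.1 the log2 fold change was -2.09, and the WT ESC mean was 5.20 times the EpiLC mean. The inhibitor genes fell less: Smad6 averaged 1.65 ± 0.056 FPKM in EpiLC and 2.83 ± 0.522 FPKM in WT ESC (SD, n = 3 each, adjusted p = 0.000277). Bambi was at 4.56, 5.04 and 4.0 FPKM in EpiLC, against 7.73, 6.52 and 6.59 FPKM in WT ESC, a log2 fold change of -0.52 ± 0.11 (adjusted p = 0.000754). Bambi has a near-identical processed copy, Bambi-ps1, whose mean was 0.644 FPKM in EpiLC and 0.682 FPKM in WT ESC. How reads were split between the copies is not stated, so Bambi levels are uncertain to that extent. The fibroblast and feeder cell markers summed to 66.1 to 68.9 FPKM in EpiLC and 108 to 129 FPKM in WT ESC, with 3 of 10 called higher and 6 lower, and their part in the results of these genes was not tested.

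Bmpr1a was at 24.3, 25.7 and 27.2 FPKM in EpiLC, against 22.9, 21.3 and 20.1 FPKM in WT ESC, and the groups did not overlap. Its EpiLC mean was 1.20 times its WT ESC mean (log2 fold change 0.25 ± 0.05, adjusted p = 0.00068). Bmp4, the ligand that the early embryo uses to pattern the posterior epiblast, was at 1.59, 1.74 and 1.68 FPKM in EpiLC, against 1.55, 1.12 and 1.74 FPKM in WT ESC. The groups overlapped and the log2 fold change was 0.12 ± 0.14 (adjusted p = 0.445). Bmp8b, known in the mouse for its part in germ cell formation, was at 0.537, 0.623 and 0.447 FPKM in EpiLC, against 0.325, 0.293 and 0.213 FPKM in WT ESC. Every EpiLC library was above every WT ESC library, and the 3 EpiLC libraries held 50 fragments in all, against 23 in WT ESC. In a fit without the filter on low values, over 18586 loci of which 56.4% were called, the log2 fold change of Bmp8b was 0.27 ± 0.07 (adjusted p = 0.00792). The Bmp4 locus overlaps Gm15217 (at 0 in 11 of 12 libraries) and the Bmp8b locus overlaps Oxct2b (at most 0.239 FPKM), so reads in the shared stretches could not be assigned for certain. The related ligand gene Bmp8a averaged 0.106 FPKM in EpiLC, 0.133 FPKM in Sirt1KO Otx2KD ESC, 0.228 FPKM in Sirt1KO ESC and 0.0457 FPKM in WT ESC. How reads were split between Bmp8a and Bmp8b is not stated, so Bmp8b levels are uncertain to that extent.

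**Figure D2:**
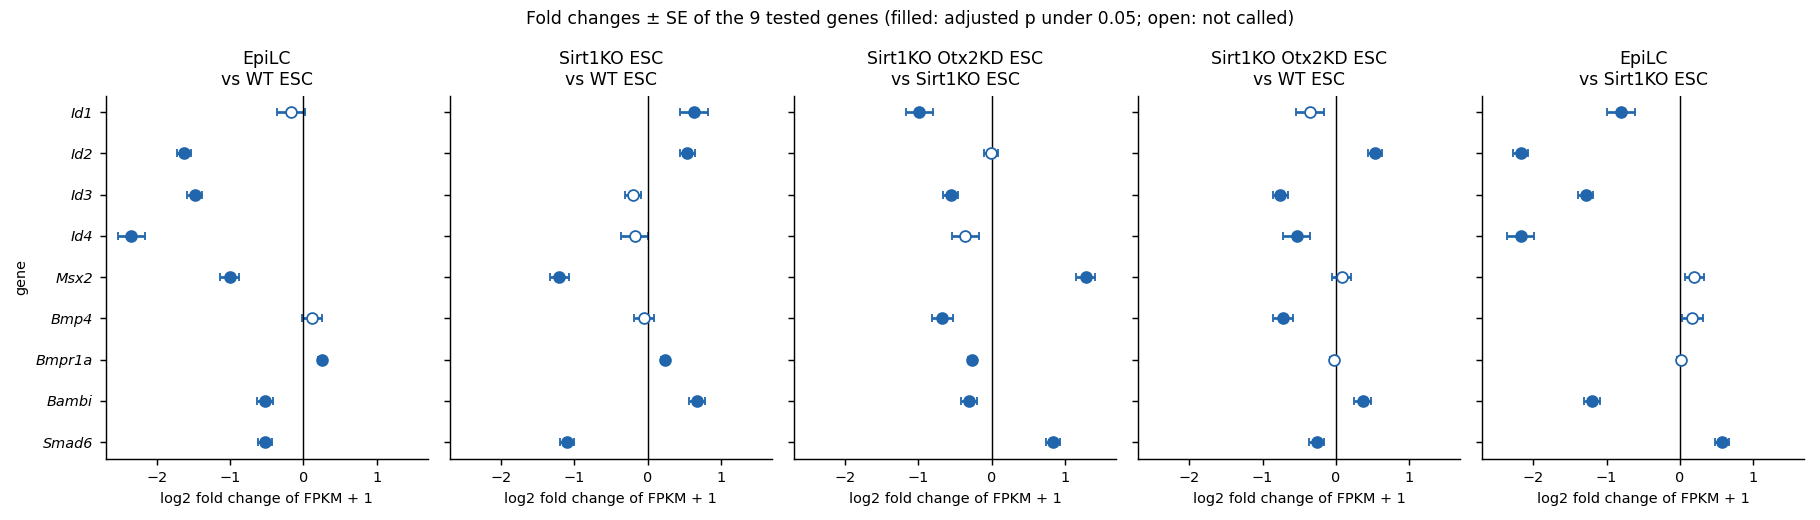
Log2 fold change of FPKM + 1 (horizontal axes) of the 9 tested genes (rows) in 5 comparisons, with bars for the SE; filled points passed an adjusted p of 0.05 and open points did not. Id2, Id3 and Id4 are left of 0 in EpiLC against both WT ESC and Sirt1KO ESC, and Smad6 and Msx2 lie left of 0 in Sirt1KO against WT ESC and right of 0 in Sirt1KO Otx2KD against Sirt1KO ESC.

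The second comparison asked what loss of Sirt1 changes in naive medium. In Sirt1KO ESC, Msx2 and Smad6 were several-fold lower than in WT ESC, and Id1, Id2, Bambi and Bmpr1a were higher. Of the 9 tested genes 4 were called higher and 2 lower, where 32.4% and 32.7% of all tested loci were, so 6 of 9 is near the 65.0% called over all loci. All 3 Sirt1KO ESC libraries were above all WT ESC libraries for 4 genes and below them for 2, where 34.4% and 34.1% of loci were. The median log2 fold change was -0.05, against 0.01 over all loci.

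Msx2 was at 0.144, 0.211 and 0.0871 FPKM in Sirt1KO ESC, against 1.82, 1.84 and 1.29 FPKM in WT ESC, and the groups did not overlap. These values stand for 3, 5 and 2 fragments in Sirt1KO ESC, against 36, 36 and 26 in WT ESC, and the 10 fragments of Sirt1KO ESC have a 95% Poisson interval of 4.80 to 18.4. The interval covers counting error only. The log2 fold change was -1.20 ± 0.13 (adjusted p = 2.27e-06), or -2.84 with a pseudocount of 0.1. Smad6 was at 0.852, 0.687 and 0.801 FPKM in Sirt1KO ESC, against 3.39, 2.75 and 2.36 FPKM in WT ESC. Its groups were also separate, with a WT ESC mean 3.63 times the Sirt1KO ESC mean. The log2 fold change of Smad6 was -1.10 ± 0.10 (adjusted p = 3.25e-07), or -1.73 with a pseudocount of 0.1. All 10 fibroblast and feeder cell markers were also called lower in Sirt1KO ESC than in WT ESC (sums of 12.3 to 16.5 and 108 to 129 FPKM), and their part in the Msx2 and Smad6 results was not tested. In bulk RNA, fewer cells of a type and less RNA per cell cannot be told apart.

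The Id genes did not move together in Sirt1KO ESC. Id1 was at 3.73, 3.04 and 3.49 FPKM in Sirt1KO ESC, against 1.54, 2.41 and 1.65 FPKM in WT ESC. All Sirt1KO ESC libraries were higher, with 28, 26 and 29 fragments against 11, 17 and 12, and the log2 fold change was 0.64 ± 0.19 (adjusted p = 0.00985). Id2 was at 18.4, 21.7 and 24.0 FPKM in Sirt1KO ESC, against 14.6, 14.9 and 13.4 FPKM in WT ESC. It was higher in every Sirt1KO ESC library, by 0.54 ± 0.10 on the log2 scale (adjusted p = 0.00032). Id3 was at 21.6, 17.2 and 16.8 FPKM in Sirt1KO ESC, against 19.6, 20.4 and 24.0 FPKM in WT ESC. Its groups overlapped through Sirt1KO ESC replicate 1 (log2 fold change -0.20 ± 0.10, adjusted p = 0.118), and without that library the log2 fold change was -0.31 with an adjusted p of 0.0162 (0.0162 to 0.393 over the alternatives). Id4 averaged 7.87 FPKM in Sirt1KO ESC and 9.08 FPKM in WT ESC, and its groups overlapped (adjusted p = 0.429).

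Bambi was at 11.6, 12.0 and 11.3 FPKM in Sirt1KO ESC, against 7.73, 6.52 and 6.59 FPKM in WT ESC. The groups were separate and the log2 fold change was 0.67 ± 0.11 (adjusted p = 0.000119). Its copy Bambi-ps1 averaged 0.830 FPKM in Sirt1KO ESC and 0.682 FPKM in WT ESC. Of the inhibitor genes, one was thus higher and the other lower in the same libraries. Bmpr1a was at 24.9, 25.4 and 26.2 FPKM in Sirt1KO ESC, against 22.9, 21.3 and 20.1 FPKM in WT ESC, a log2 fold change of 0.24 ± 0.05 (adjusted p = 0.00132). Bmp4 was at 1.84, 1.34 and 1.00 FPKM in Sirt1KO ESC, against 1.55, 1.12 and 1.74 FPKM in WT ESC, with groups that overlapped (adjusted p = 0.768). Bmp8b held 22 fragments over the 3 Sirt1KO ESC libraries and 23 over the 3 WT ESC libraries.

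The third comparison asked what knockdown of Otx2 changes on the Sirt1 knockout background. In Sirt1KO Otx2KD ESC, Msx2 and Smad6 were higher than in Sirt1KO ESC, and Bmp4, Id1, Id3, Bmpr1a and Bambi were lower. Of the 9 tested genes 2 were called higher and 5 lower, where 31.1% and 31.5% of all tested loci were called in those directions and 62.6% in either. All 3 Sirt1KO Otx2KD ESC libraries were above all Sirt1KO ESC libraries for 2 genes and below them for 6, where 33.5% and 33.7% of loci were. The median log2 fold change was -0.31, against -0.01 over all loci.

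Msx2 was at 1.34, 1.78 and 2.34 FPKM in Sirt1KO Otx2KD ESC, against 0.144, 0.211 and 0.0871 FPKM in Sirt1KO ESC. The groups did not overlap, with 35, 27 and 50 fragments against 3, 5 and 2. The log2 fold change was 1.28 ± 0.13 (adjusted p = 1.6e-06), or 2.95 with a pseudocount of 0.1. Smad6 was at 2.06, 2.42 and 2.05 FPKM in Sirt1KO Otx2KD ESC, against 0.852, 0.687 and 0.801 FPKM in Sirt1KO ESC. Every Sirt1KO Otx2KD ESC library was above every Sirt1KO ESC library, by 0.84 ± 0.10 on the log2 scale (adjusted p = 6.69e-06), or 1.37 with a pseudocount of 0.1. All 10 fibroblast and feeder cell markers were called higher in Sirt1KO Otx2KD ESC than in Sirt1KO ESC, with sums of 239 to 241 and 12.3 to 16.5 FPKM. Their part in the Msx2 and Smad6 results was not tested. Against WT ESC, where 9 of the 10 markers were higher in Sirt1KO Otx2KD ESC, Msx2 was not called (log2 fold change 0.08 ± 0.13, adjusted p = 0.627) and Smad6 was lower (-0.26 ± 0.10, adjusted p = 0.0386).

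**Figure D3:**
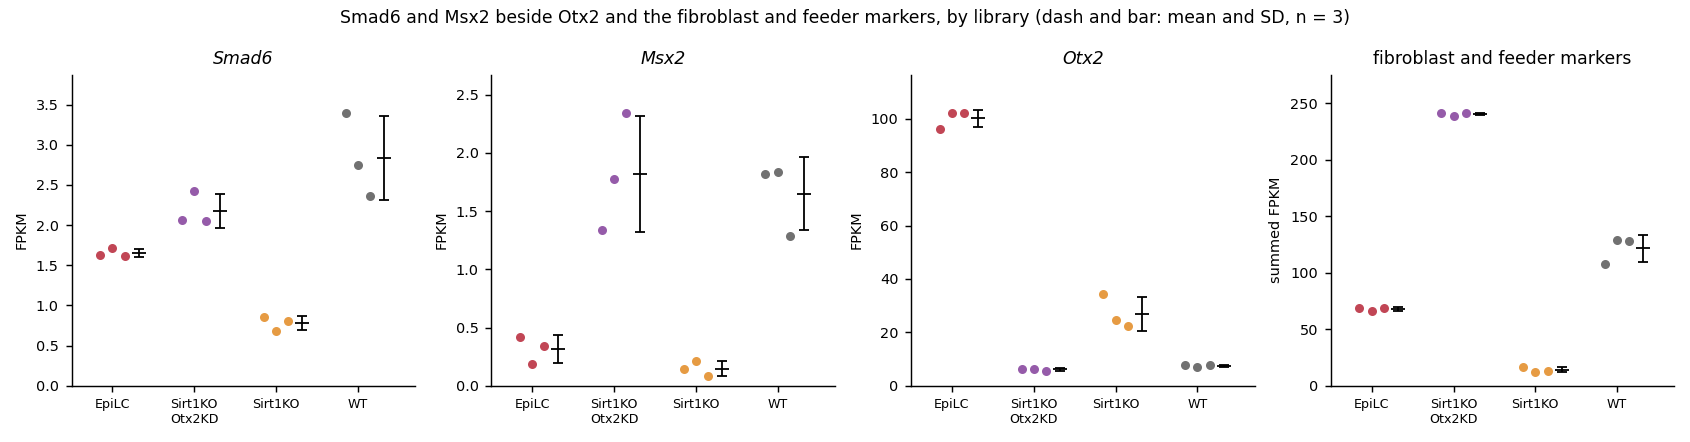
FPKM of Smad6, Msx2 and Otx2 and the summed FPKM of 10 fibroblast and feeder cell markers (vertical axes, from 0) in each library, grouped as EpiLC, Sirt1KO Otx2KD, Sirt1KO and WT; dash and bar show the mean and SD (n = 3). Smad6 and the marker sum are lowest in Sirt1KO ESC. Msx2 has its lowest mean there, with libraries that overlap those of EpiLC. The marker sum in Sirt1KO Otx2KD ESC (239 to 241 FPKM) is above that in WT ESC (108 to 129 FPKM).

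Bmp4 was at 0.462, 0.720 and 0.307 FPKM in Sirt1KO Otx2KD ESC, against 1.84, 1.34 and 1.00 FPKM in Sirt1KO ESC. It was lower in all 3 libraries, with 11, 10 and 6 fragments against 35, 29 and 21. The log2 fold change was -0.67 ± 0.14 (adjusted p = 0.000808), or -1.35 with a pseudocount of 0.1. Bmp8b held 30 fragments in Sirt1KO Otx2KD ESC and 22 in Sirt1KO ESC, and in the fit without the filter, where 45.3% of loci were called, its log2 fold change was 0.14 ± 0.07 (adjusted p = 0.146). Bmpr1a was at 21.0, 21.4 and 20.7 FPKM in Sirt1KO Otx2KD ESC, against 24.9, 25.4 and 26.2 FPKM in Sirt1KO ESC. The receptor gene was thus lower in each library of the double-modified cells (log2 fold change -0.26 ± 0.05, adjusted p = 0.000695).

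Id1 was at 1.38, 0.910 and 1.42 FPKM in Sirt1KO Otx2KD ESC, against 3.73, 3.04 and 3.49 FPKM in Sirt1KO ESC. The groups were separate, with 13, 5 and 11 fragments against 28, 26 and 29, and Id1 fell by 0.99 on the log2 scale (SE 0.19, adjusted p = 0.000544). Id3 was at 10.7, 13.6 and 12.4 FPKM in Sirt1KO Otx2KD ESC, against 21.6, 17.2 and 16.8 FPKM in Sirt1KO ESC. It was lower in every library, by a log2 fold change of -0.56 ± 0.10 (adjusted p = 0.000421). Id4 was at 5.39, 6.51 and 5.84 FPKM in Sirt1KO Otx2KD ESC, against 7.68, 7.45 and 8.49 FPKM in Sirt1KO ESC. The libraries of Id4 did not overlap, but it did not pass the test (log2 fold change -0.36 ± 0.18, adjusted p = 0.109). With only these 2 groups in the fit, its adjusted p was 0.00403 (0.00403 to 0.308 over the alternatives). Id2 was at 20.8, 21.4 and 21.2 FPKM in Sirt1KO Otx2KD ESC, against 18.4, 21.7 and 24.0 FPKM in Sirt1KO ESC, with overlapping groups (adjusted p = 0.954).

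Bambi was at 9.68, 10.9 and 7.39 FPKM in Sirt1KO Otx2KD ESC, against 11.6, 12.0 and 11.3 FPKM in Sirt1KO ESC. It was lower in each library (log2 fold change -0.31 ± 0.11, adjusted p = 0.0279), and the call does not hold under every alternative. The adjusted p was 0.061 with unnamed loci in the fit, 0.0724 with chromosome medians removed, 0.148 without Sirt1KO Otx2KD ESC replicate 3 (log2 fold change -0.17), 0.0575 without Sirt1KO ESC replicate 1 and 0.0775 without Sirt1KO ESC replicate 2 (0.0056 to 0.148 over the alternatives).

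Sirt1KO Otx2KD ESC were also set against WT ESC, from which they differ by both changes. This comparison shares its libraries with the others and is no independent support for them. Bmp4 and Id3 were lower and Id2 was higher, with no overlap between the groups. Of the 9 tested genes 2 were called higher and 4 lower, where 27.1% and 26.8% of all tested loci were called in those directions and 53.9% in either. The Sirt1KO Otx2KD ESC libraries all lay above those of WT ESC for 1 gene and below them for 4, where 30.9% and 30.4% of loci did. The median log2 fold change was -0.26, against 0.00 over all loci.

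Bmp4 was at 0.462, 0.720 and 0.307 FPKM in Sirt1KO Otx2KD ESC, against 1.55, 1.12 and 1.74 FPKM in WT ESC. Its log2 fold change was -0.72 ± 0.14 (adjusted p = 0.000586), or -1.43 with a pseudocount of 0.1. Id3 averaged 12.2 FPKM in Sirt1KO Otx2KD ESC and 21.3 FPKM in WT ESC (adjusted p = 4.39e-05). Id2 averaged 21.1 FPKM in Sirt1KO Otx2KD ESC and 14.3 FPKM in WT ESC (log2 fold change 0.54 ± 0.10, adjusted p = 0.000522). Id2 in the double-modified cells was therefore above WT ESC, while it overlapped with Sirt1KO ESC. Id4 averaged 5.91 FPKM in Sirt1KO Otx2KD ESC and 9.08 FPKM in WT ESC (log2 fold change -0.54 ± 0.18, adjusted p = 0.0282).

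The calls on Id4, Smad6 and Bambi in this comparison do not hold under every alternative. With a pseudocount of 0.1 and with unnamed loci in the fit, the adjusted p was 0.155 and 0.0529 for Id4 and 0.0627 and 0.0615 for Smad6, and with only the 2 groups fitted it was 0.0786 for Smad6. Without WT ESC replicate 2, Sirt1KO Otx2KD ESC replicate 1 or Sirt1KO Otx2KD ESC replicate 3, the adjusted p of Id4 was 0.105, 0.0882 and 0.0693 (0.00341 to 0.155 over the alternatives). The libraries of Smad6 overlapped, and its log2 fold change was -0.16 without WT ESC replicate 1 (adjusted p = 0.186). It also missed the threshold without WT ESC replicate 2 (0.0668) and without Sirt1KO Otx2KD ESC replicate 1 (0.107) or replicate 3 (0.110), with 0.0107 to 0.186 over the alternatives. Bambi averaged 9.33 FPKM in Sirt1KO Otx2KD ESC and 6.95 FPKM in WT ESC (log2 fold change 0.37 ± 0.11, adjusted p = 0.0134), with overlapping libraries. Without Sirt1KO Otx2KD ESC replicate 2 its adjusted p was 0.0697 (0.000642 to 0.0697 over the alternatives). Id1 did not pass the test, though its Sirt1KO Otx2KD ESC libraries were all below those of WT ESC (log2 fold change -0.35 ± 0.19, adjusted p = 0.135), and neither did Bmpr1a (21.0 FPKM in Sirt1KO Otx2KD ESC and 21.4 FPKM in WT ESC, adjusted p = 0.725).

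EpiLC were set directly against Sirt1KO ESC, since separate calls against the same WT ESC libraries do not show where the groups differ. These groups differ in genotype, state and medium, which cannot be told apart here. Of the 9 tested genes 1 was called higher and 5 lower in EpiLC, where 34.0% and 35.1% of all tested loci were called in those directions and 69.1% in either. The EpiLC libraries all lay above those of Sirt1KO ESC for 1 gene and below them for 5, where 35.8% and 36.6% of loci did. The median log2 fold change was -0.80, against -0.01 over all loci. All 4 Id genes were lower in EpiLC, with log2 fold changes of -0.80 ± 0.19 for Id1 (adjusted p = 0.00207), -2.17 ± 0.10 for Id2 (4.36e-10), -1.29 ± 0.10 for Id3 (1.41e-07) and -2.17 ± 0.18 for Id4 (5.92e-07). Bambi was lower as well (-1.20 ± 0.11, adjusted p = 4.31e-07), with 4.53 FPKM in EpiLC and 11.7 FPKM in Sirt1KO ESC. Smad6 was higher in EpiLC, with 1.65 FPKM against 0.780 FPKM in Sirt1KO ESC (0.57 ± 0.10, adjusted p = 0.000153), or 1.00 on the log2 scale with a pseudocount of 0.1. All 10 fibroblast and feeder cell markers were higher in EpiLC too, and their part in the Smad6 result was not tested. Msx2, at 0.317 FPKM in EpiLC and 0.148 FPKM in Sirt1KO ESC, was not called (adjusted p = 0.2), although with a pseudocount of 0.1 its log2 fold change was 0.74 with an adjusted p of 0.0356 (0.0356 to 0.428 over the alternatives). In the fit without the filter, where 51.1% of loci were called, Bmp8b was higher in EpiLC (0.32 ± 0.07, adjusted p = 0.00295). Bmp8a averaged 0.106 FPKM in EpiLC and 0.228 FPKM in Sirt1KO ESC, and the split of reads between these genes is not stated.

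A sixth pair, EpiLC against Sirt1KO Otx2KD ESC, was added after the data had been seen, to complete the order of levels for each gene. Its groups also differ in genotype, state and medium. In this pair 2 of the 9 genes were called higher and 6 lower, where 36.0% and 38.2% of all tested loci were called in those directions and 74.3% in either. Id2 was lowest in EpiLC, then WT ESC, with Sirt1KO Otx2KD ESC and Sirt1KO ESC highest and not called different from each other. Id3 was lowest in EpiLC, then Sirt1KO Otx2KD ESC (adjusted p = 2.57e-05 between them), with Sirt1KO ESC and WT ESC highest and not called different. Id4 had the same order of means as Id3, and of its neighbouring groups EpiLC and Sirt1KO Otx2KD ESC were called different (adjusted p = 2.15e-06). Sirt1KO Otx2KD ESC and Sirt1KO ESC did not overlap but did not pass the test. Id1 was highest in Sirt1KO ESC, and no pair of its other 3 groups was called (adjusted p = 0.387 for EpiLC against Sirt1KO Otx2KD ESC), although the Sirt1KO Otx2KD ESC libraries all lay below those of WT ESC. Bmp4 was lowest in Sirt1KO Otx2KD ESC (adjusted p = 7.79e-05 for EpiLC against it), and no pair of its other 3 groups was called. Smad6 ran upward in the order Sirt1KO ESC, EpiLC, Sirt1KO Otx2KD ESC and WT ESC, with an adjusted p of 0.0287 between EpiLC and Sirt1KO Otx2KD ESC and the limits of single calls given above. Msx2 had a low pair (Sirt1KO ESC and EpiLC) and a high pair (WT ESC and Sirt1KO Otx2KD ESC), with no call within either pair. Bambi was lowest in EpiLC, then WT ESC, Sirt1KO Otx2KD ESC and Sirt1KO ESC, and each neighbour differed from the next, with the same limits. Bmpr1a had a low pair (Sirt1KO Otx2KD ESC and WT ESC) and a high pair (Sirt1KO ESC and EpiLC), and the Sirt1KO ESC mean was 1.21 times the Sirt1KO Otx2KD ESC mean.

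The 4 Id genes together amounted to 13.6 ± 0.779 FPKM in EpiLC, 40.5 ± 2.08 FPKM in Sirt1KO Otx2KD ESC, 51.2 ± 1.72 FPKM in Sirt1KO ESC and 46.6 ± 2.47 FPKM in WT ESC (SD, n = 3 each). The make-up of this sum differed between groups. Id3 held the largest share in EpiLC (51.4%) and in WT ESC (45.8%). Id2 held the largest share in Sirt1KO Otx2KD ESC (52.2%) and, by the mean, in Sirt1KO ESC (41.7%), where replicate 1 had more Id3 (42.0%) than Id2 (35.8%). In EpiLC the share of Id2 was 29.4%, near the 30.8% of WT ESC. Id4 held 7.44% in EpiLC and 14.6%, 15.4% and 19.4% in Sirt1KO Otx2KD, Sirt1KO and WT ESC. Id1 was the smallest part in the 3 ESC groups (3.08%, 6.67% and 3.98% in the same order) and held 11.7% in EpiLC, where replicate 1 gave 17.9% and the others 8.37% and 8.79%. These shares are of FPKM and no test was made on them.

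**Figure D4:**
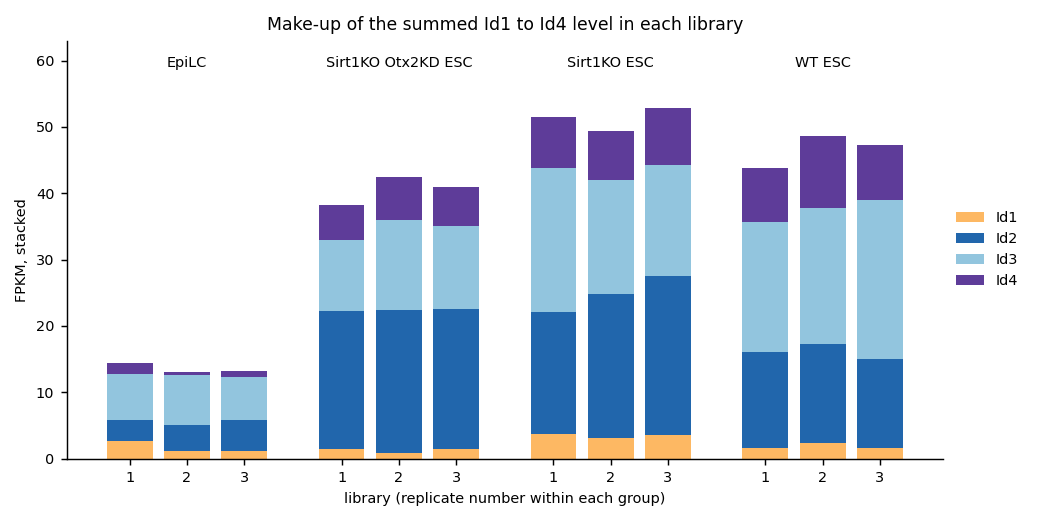
Stacked FPKM of Id1, Id2, Id3 and Id4 (vertical axis) in each of the 12 libraries (horizontal axis, replicate number within EpiLC, Sirt1KO Otx2KD, Sirt1KO and WT ESC). The stacks reach 13.1 to 14.5 FPKM in EpiLC and 38.3 to 52.8 FPKM in the ESC groups, with Id2 the largest part in Sirt1KO Otx2KD ESC.

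The low genes rest on few fragments. For Id1, Msx2, Bmp4, Bmp8b and Smad6 the 12 values were whole multiples of 1 step to within 0.05 fragments. Over the 12 libraries, Bmp8b held 125 fragments, Id1 190, Bmp4 292 and Smad6 655. The chi-square between replicates (8 degrees of freedom) was 10 for Id1, 12.3 for Msx2, 10.7 for Bmp4, 4.52 for Bmp8b and 7.13 for Smad6. The spread between replicates of these genes was thus close to counting error.

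The rest of the pathway was described from 67 further genes, listed by role from general knowledge, of which 35 passed the filter. In EpiLC against WT ESC 16 were called higher and 14 lower, in Sirt1KO against WT ESC 13 and 16, and in Sirt1KO Otx2KD against Sirt1KO ESC 14 and 10. In Sirt1KO Otx2KD against WT ESC 9 were called higher and 6 lower. Over all tested loci, the shares called higher and lower were 35.8% and 38.8% in the first of these comparisons, 32.4% and 32.7% in the second, 31.1% and 31.5% in the third and 27.1% and 26.8% in the fourth, and the counts by role below stand against the same shares. The medians of the 35 genes were 0.22, -0.11, 0.06 and 0.05, against -0.02, 0.01, -0.01 and 0.00 over all loci tested in the same order.

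Among the other ligands 2 of 13 were tested. Gdf3 and Bmp7 were both lower in EpiLC than in WT ESC (log2 fold changes -0.42 and -0.62) and both higher in Sirt1KO than in WT ESC (0.24 and 0.29). Both were lower in Sirt1KO Otx2KD than in Sirt1KO ESC (-0.16 and -0.25), and neither was called between Sirt1KO Otx2KD and WT ESC. Of the other receptors and co-receptors 7 of 10 were tested. In EpiLC 1 was higher and 4 were lower, where 35.8% and 38.8% of all loci were. The higher one was the type II receptor gene Acvr2b (1.20 ± 0.06, adjusted p = 7.6e-10). The lower ones were led by the BMP co-receptor genes Rgma (-1.57 ± 0.10, adjusted p = 2.74e-09) and Rgmb (-0.74). In Sirt1KO against WT ESC 1 was higher and 3 lower, among them Rgmb (-0.73) and Eng (-0.48). In Sirt1KO Otx2KD against Sirt1KO ESC 4 were higher, where 31.1% of all loci were, and the other 3 were not called. They were led by Rgma (1.75 ± 0.10, adjusted p = 3.15e-09) and Eng (0.85), a co-receptor gene of endothelial and stromal cells. All 10 fibroblast and feeder cell markers were higher in the same comparison, with sums of 239 to 241 FPKM in Sirt1KO Otx2KD ESC and 12.3 to 16.5 FPKM in Sirt1KO ESC, and their part in these values was not tested.

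Of the Smads and their regulators 12 of 13 were tested, and all 12 were called in EpiLC, 8 higher and 4 lower, where 35.8% and 38.8% of all loci were. Zfp423, a Smad partner, was higher (1.94), on the shifted chromosome 8, and Tob1, a repressor of BMP Smads, was lower (-1.95), on the shifted chromosome 11. Skil, a co-repressor of Smad activity, was higher in EpiLC (0.57 ± 0.05, adjusted p = 1.85e-07). In Sirt1KO against WT ESC 5 were higher and 6 lower. The co-repressor genes Skil (-1.05 ± 0.05, adjusted p = 7.14e-10) and Ski (-0.75 ± 0.06, adjusted p = 6.26e-08) led the lower ones, and Smad5 was higher (0.37). Among those called, Smad1 (0.435) and Zfp423 (0.445) lie on chromosome 8, near its median of 0.46 in this comparison. Tob1 (-0.453) lies on chromosome 11, near its median of -0.49, as does Smurf2, which was at -0.111. In Sirt1KO Otx2KD against Sirt1KO ESC Ski was higher (1.03 ± 0.06, adjusted p = 4.42e-09) and Skil was not called (0.02 ± 0.05, adjusted p = 0.742). Against WT ESC, Skil was lower in Sirt1KO Otx2KD ESC (-1.03 ± 0.05, adjusted p = 2.79e-09) and Ski was higher (0.28 ± 0.06, adjusted p = 0.0011).

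Of the secreted antagonists 7 of 16 were tested. In EpiLC 4 were higher, where 35.8% of all loci were, and the other 3 were not called. They were led by Twsg1 (0.84 ± 0.05, adjusted p = 2.13e-09) and Grem1 (1.02 ± 0.13, adjusted p = 5.71e-06). In Sirt1KO against WT ESC 3 were higher and 3 lower, among them Fst, whose product follistatin traps activins and BMPs (1.20 ± 0.11, adjusted p = 4.11e-07), and Fstl1 (-0.66). In Sirt1KO Otx2KD against Sirt1KO ESC 3 were higher and 3 lower. Fstl1 (1.61 ± 0.04, adjusted p = 1.31e-12) and Nbl1 (1.65 ± 0.11, adjusted p = 2.26e-08) were higher, and Fst was lower (-1.19 ± 0.11, adjusted p = 6.29e-07). Fstl1 is also abundant in fibroblasts, and the fibroblast and feeder cell marker sum moved in the same directions (12.3 to 16.5 FPKM in Sirt1KO, against 108 to 129 FPKM in WT ESC, and 239 to 241 FPKM in Sirt1KO Otx2KD ESC). The part of those cells in the Fstl1 values was not tested.

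Of the other reported targets 4 of 12 were tested. In EpiLC against WT ESC 1 was higher, the phosphatase gene Dusp9 (1.19), and 3 were lower, where 35.8% and 38.8% of all loci were. Tbx3, a T-box gene of the naive state, was lower by the most (-3.79 ± 0.06, adjusted p = 1.37e-14), followed by Gata2 (-2.90 ± 0.07, adjusted p = 4.47e-13). In Sirt1KO against WT ESC Gata2 (-1.30) and Hey1 (-1.33) were among 3 lower genes, and in Sirt1KO Otx2KD against Sirt1KO ESC Gata2 (1.41) and Tbx3 (0.60) were among 3 higher genes. Of the E protein genes, whose products Id proteins bind, all 3 were tested. In EpiLC Tcf12 (0.59) and Tcf4 (0.55) were higher and Tcf3 was lower (-0.27). In Sirt1KO against WT ESC Tcf12 was higher (0.16) and Tcf3 lower (-0.35), and both were higher in Sirt1KO Otx2KD than in Sirt1KO ESC (0.24 and 0.23).

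**Figure D5:**
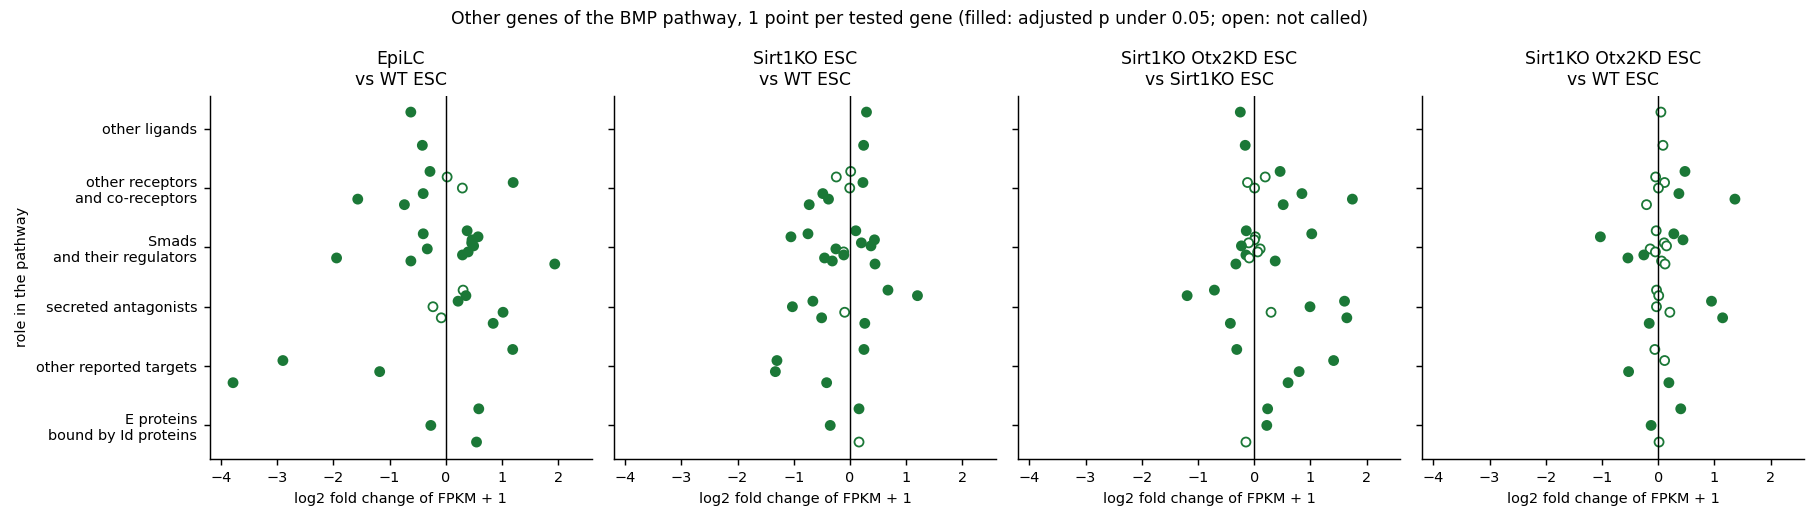
Log2 fold change of FPKM + 1 (horizontal axes) of each tested gene of the pathway other than the 10, in rows by role, for 4 comparisons; filled points passed an adjusted p of 0.05 and open points did not. In EpiLC against WT ESC the reported targets Tbx3 (-3.79) and Gata2 (-2.90) lie farthest left.

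For Id1, Id2, Id3 and Bmp4, the genes with the most similar pattern were sought by the root mean square difference between log2(FPKM + 1) values over the 12 libraries, each centred on its own mean. The search covered 8260 or 8261 genes with a mean of at least 5 FPKM. Closest to Id2 was Cd9, a tetraspanin gene, with a difference of 0.106, where Id2 itself varied by 0.897 around its mean. Cd9 averaged 79.3 FPKM in EpiLC, 386 FPKM in Sirt1KO Otx2KD ESC, 420 FPKM in Sirt1KO ESC and 265 FPKM in WT ESC, the order that Id2 has in its means. Next to Id2 came Elovl7 (0.151) and AI464131 (0.171). Closest to Bmp4 were Epb4.1l4a (0.137), Snap47 (0.144) and Glod4 (0.151), each lowest in Sirt1KO Otx2KD ESC. Bmp4 averaged 0.496 FPKM in Sirt1KO Otx2KD ESC and 1.47 FPKM in WT ESC, and Epb4.1l4a 4.88 and 8.78 FPKM. The scale understates changes of low genes such as Bmp4 and Id1, so the matched genes need not change by the same factor. Closest to Id3 were the adhesion gene Pecam1 (0.205), Hscb (0.210) and Cdyl2 (0.212). For Id1 the nearest genes, Gm7325 (0.206), Sh3gl2 (0.242) and Gm15421 (0.246), were less close relative to its own variation of 0.432.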

How the data were processed

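Poly(A)-selected RNA of 12 libraries was sequenced with TruSeq chemistry, per the labels' protocols, and each was put in its group by its title. Reads were processed with TopHat, Cufflinks and Cuffdiff on mm9, per the submitters' processing notes, which are used here without versions. What the authors deposited is an FPKM value for each locus. Strand use in counting and the setting of library sizes are not given in the sources used here. Unnamed loci (4778 of 27914) hold 95.3% to 96.9% of each library's FPKM sum and were left out of the tests.

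Named loci with at least 1 FPKM in at least 3 of 12 libraries (12320) were fitted as log2(FPKM + 1) with limma 3.58.1 in R 4.3.3, with a mean per group and empirical Bayes with trend and robust. Tests were two-sided with Benjamini-Hochberg adjustment over all loci fitted, called under 0.05, and the script was tested on simulated data. The 10 genes, the pathway lists and the markers were chosen with earlier results of these data known. Pathway genes were named by rule, as up to 2 higher and 2 lower per role and comparison with the largest moderated t among those called. Similar genes were the 3 nearest to each of Id1, Id2, Id3 and Bmp4.

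Depth was estimated from the smallest FPKM steps of loci under 0.1 FPKM, and fragment totals from single transcripts over 1500 bases in the GENCODE annotation. Of 1684 such loci 61.9% gave a total near the most frequent one, so totals are approximate. Intervals are exact Poisson at 95% and cover counting error only.

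Alternatives were a pseudocount of 0.1, no filter, median-of-ratios and quantile scaling, only the groups compared, a replicate block, unnamed loci included, plain empirical Bayes, each library left out and, added after the data had been seen, removal of chromosome medians. Promoters are from RefSeq on GRCm38.p6, and no coordinates were converted between it and mm9.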

Additional observations from a re-analysis of the deposited data

How the results depend on the processing

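Of 45 results (9 genes in 5 comparisons) 32 were called, and 28 of these were called under all 15 alternatives tried on each. The 4 others were Bambi in Sirt1KO Otx2KD against Sirt1KO ESC and Id4, Smad6 and Bambi in Sirt1KO Otx2KD against WT ESC. No called result changed sign. Against WT ESC, the count of genes lower in Sirt1KO Otx2KD ESC was 4 in the fit reported, 2 with a pseudocount of 0.1, 2 with unnamed loci in the fit and 2 to 4 with a library left out, and the count higher was 1 to 2 with a library left out. The count higher in EpiLC against Sirt1KO ESC was 2 with a pseudocount of 0.1, through Msx2. Signs changed only among results that were not called. With a library left out, the log2 fold change ranged between -0.182 and 0.0718 for Bmp4 in Sirt1KO against WT ESC and between -0.106 and 0.0759 for Id2 in Sirt1KO Otx2KD against Sirt1KO ESC. In Sirt1KO Otx2KD against WT ESC it ranged between -0.0667 and 0.0228 for Bmpr1a and between -0.0481 and 0.207 for Msx2. For Bmpr1a in EpiLC against Sirt1KO ESC it ranged between -0.0259 and 0.0526. With chromosome medians removed, an alternative chosen after seeing the data, it was 0.027 for Id2 in Sirt1KO Otx2KD against Sirt1KO ESC and -0.0366 for Bmpr1a in EpiLC against Sirt1KO ESC. The cause of these changes was not tested. No pairing by replicate number was seen: over 18 pairs of same-numbered libraries the deviations from the group means correlated between -0.107 and 0.17. Spread was set against counting error only for Id1, Msx2, Bmp4, Bmp8b and Smad6. Where replicates differ little beyond that error, such correlations could not show a shared culture or day. Dnmt3b, which is not among those genes, was at 143, 96.4 and 97.6 FPKM in Sirt1KO ESC. A fit with the replicate number as a block gave the same count in each direction in every comparison except Sirt1KO Otx2KD against WT ESC, where 3 genes were lower, without Id4 (adjusted p = 0.0556). Values under about 1 FPKM, such as Bmp8b throughout and Msx2 in EpiLC and Sirt1KO ESC, are limited by their few fragments. Id1 is limited likewise, with 190 fragments over the 12 libraries.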
